A study of Mus musculus with 8 samples.

Results

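The genes described here are those of the CXCR2 route, by which neutrophils are drawn into tissue, in CT26 mouse colon tumors treated with TP-16, with anti-PD-1 antibody or with both. They are the ligand genes Cxcl1, Cxcl2, Cxcl3, Cxcl5 and Ppbp, their receptor Cxcr2, the growth factor gene Csf3 and its receptor Csf3r. The members are taken by gene name, with all probes of the arrays that carry one of these names, and the names were set with earlier results of these data known. These are 8 of 37074 gene names on the arrays, with 1 probe each among 56605 mouse probes. The CT26 line was derived from a colon carcinoma and grows in BALB/c mice. Every mouse carried a subcutaneous tumor grown from 500000 CT26 cells, and the methods give female mice of 6 to 10 weeks. Vehicle mice received neither agent. TP-16 mice received a blocker of EP4, a receptor for prostaglandin E2, at 75 mg/kg by mouth every day, where the sample labels name BY001. BY001 was taken to be TP-16 because the dose, the route and the groups are the same, which no source used here states. Anti-PD-1 mice received 50 µg of an antibody that blocks PD-1, a receptor that restrains T cells, by intraperitoneal injection in 2 doses a week. Combination mice received both agents, and treatment lasted 2 weeks in all groups. Each group had 2 samples of whole tumor RNA, so fewer cells of a type and less RNA per cell cannot be told apart, and the sources do not say if tumors were pooled. If the samples are not separate tumors, the p-values measure technical spread only.

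CXCR2 ligands are small secreted proteins that bind a G protein-coupled receptor on neutrophils and guide these cells along a gradient. Epithelial, stromal and myeloid cells make Cxcl1, Cxcl2, Cxcl3 and Cxcl5 after inflammatory signals such as interleukin 1, tumor necrosis factor and interleukin 17, largely through NF-κB. Ppbp is stored mainly in platelets and megakaryocytes, beside the related platelet factor Pf4. Csf3 encodes G-CSF, which drives the making and release of neutrophils from the bone marrow through the receptor Csf3r. In colon tumors these ligands are known for drawing neutrophils and suppressive myeloid cells.

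The 5 ligand genes lie close together on chromosome 5, and the promoters of 4 of them are shown because these neighbors had different values across the groups. The sequences are those of RefSeq for GRCm38.p6, and each holds the 250 bases before the gene start on the plus strand. Capitals mark a match to the NF-κB core GGANNTTCC, which was searched on both strands. Cxcl2 lies at chr5:90903649-90903898, Cxcl1 at chr5:90890995-90891244, Cxcl3 at chr5:90785851-90786100 and Ppbp at chr5:90768268-90768517.
Cxcl1: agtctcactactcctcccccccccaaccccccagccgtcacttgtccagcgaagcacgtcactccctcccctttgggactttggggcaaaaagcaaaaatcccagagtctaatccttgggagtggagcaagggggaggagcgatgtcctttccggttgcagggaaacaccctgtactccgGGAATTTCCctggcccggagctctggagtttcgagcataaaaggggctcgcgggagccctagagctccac
Cxcl2: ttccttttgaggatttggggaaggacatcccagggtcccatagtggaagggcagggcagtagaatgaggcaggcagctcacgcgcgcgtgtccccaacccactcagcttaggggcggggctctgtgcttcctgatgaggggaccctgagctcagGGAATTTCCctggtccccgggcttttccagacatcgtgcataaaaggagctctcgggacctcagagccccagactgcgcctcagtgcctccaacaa
Cxcl3: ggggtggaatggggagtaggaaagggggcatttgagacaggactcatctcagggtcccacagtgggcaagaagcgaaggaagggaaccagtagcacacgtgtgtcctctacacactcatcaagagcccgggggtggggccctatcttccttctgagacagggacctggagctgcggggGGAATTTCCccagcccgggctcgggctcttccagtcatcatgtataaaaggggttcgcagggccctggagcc
Ppbp: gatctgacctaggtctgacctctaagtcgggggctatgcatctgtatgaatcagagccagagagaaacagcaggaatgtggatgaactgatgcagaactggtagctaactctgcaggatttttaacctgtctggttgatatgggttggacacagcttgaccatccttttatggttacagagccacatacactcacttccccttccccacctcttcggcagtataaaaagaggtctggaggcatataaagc
The same letters, GGAATTTCC, stood 70 to 62 bases before the start of Cxcl1, 96 to 88 before that of Cxcl2 and 72 to 64 before that of Cxcl3. No match lay in the Ppbp window or in that of Cxcr2, and the Csf3r window held 1 match. Among the 32851 promoters of the table, 4.26% held the motif in their 300 bases. The cAMP response element TGACGTCA, which 1.79% of them held, was found in 0 of the 6 members' promoters of the table.

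The 8 samples were read on Agilent arrays in 1 color, all on 1 slide and in 1 scan. Vehicle and TP-16 filled slide row 1 and the other groups row 2, while columns 3 and 4 held the arrays of TP-16 and of the combination. Slide row and antibody, and slide column and TP-16, therefore cannot be told apart. An array had 51.4% to 59.7% of its probes well above background. On the arrays with TP-16 the 75th percentile of intensity was 530.2 to 733.6, and on the others it was 371.1 to 414.9. A level below is a log2 intensity minus that of this percentile. Levels of different probes are not compared, apart from sums and means over a list, which take probe values as they are. In the mm9 build of the array annotation, the probes lie at chr5:91322080-91322139 (Cxcl1), chr5:91334534-91334593 (Cxcl2), chr5:91216694-91216753 (Cxcl3), chr5:91190490-91190549 (Cxcl5), chr5:91198970-91199029 (Ppbp), chr1:74206886-74206945 (Cxcr2), chr11:98564614-98564673 (Csf3) and chr4:125721478-125721537 (Csf3r). Of the 8 members, 7 were tested, and these were well above background on all 8 arrays. Tests were those of limma over all 8 arrays and 31912 tested probes, with Benjamini-Hochberg adjusted p-values. A gene was called when its fold reached 2 and its adjusted p was no higher than 0.05. The methods set 0.05 on the unadjusted p, and counts by that rule are given as the unadjusted threshold. The vehicle arrays lay farthest apart, with an SD of their difference over the tested probes of 0.675, against 0.417 to 0.525 in the other groups. In the comparison of the combination with vehicle, 4004 probes were called at adjusted p, of which 40.5% were higher under the combination, against 68.7% of 3363 after quantile normalization. Without combination replicate 2, 0 of the 31912 probes were called. TP-16 replicate 2 and anti-PD-1 replicate 2 stood apart in 4 of 5 tested markers of epidermis and hair follicle (Krt5, Krt14, Krt10 and Krtdap, all highest there), with a summed intensity of 33.7 and 34.7 times the 75th percentile against 2.18 to 5.65 on the other arrays. Krt14, a keratin of basal epidermis, was at 3.80 and 4.22 on these arrays and between -4.92 and -0.35 elsewhere, with 1 of the 8 values not well above background. The other marker, Tchh, was not high on them (-6.72 and -5.69, against -6.36 to -2.90 elsewhere). The part of these markers in the single-agent values was not tested. Leaving out either array kept Ppbp as the only member past the unadjusted threshold under TP-16 (-1.15 without TP-16 replicate 2), and Cxcl5 under anti-PD-1 went from 0.58 to 1.20, past that threshold, without anti-PD-1 replicate 2.

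Cxcl1 encodes a main neutrophil attractant of mouse tissue. Its levels were 2.39 and 2.17 in vehicle, 2.51 and 2.65 under TP-16, 2.53 and 2.02 under anti-PD-1, and 1.62 and 0.81 under the combination. Both combination arrays lay below all 6 others. Before the percentile was subtracted the intensities overlapped, at 1868 and 1285 under the combination and 1688 to 3462 elsewhere. The group means, with SDs of 2 arrays, ran from 2.58 ± 0.10 (TP-16) through 2.28 ± 0.16 (vehicle) and 2.28 ± 0.36 (anti-PD-1) to 1.22 ± 0.58 (combination). Neither single agent differed from vehicle past the unadjusted threshold. Against vehicle, Cxcl1 fell 2.09-fold under the combination (log2 fold change -1.07, standard error 0.31, 95% confidence interval -1.82 to -0.32, limma adjusted p = 0.0449). Over all tested probes the median of this comparison was -0.20, and relative to it the change of Cxcl1 was -0.865. The direction held under all 18 alternatives, but the adjusted p ranged from 0.0201 to 0.275, and after quantile normalization the call was lost (-1.05, limma adjusted p = 0.0552). Of the fits that left out 1 array, only the one without combination replicate 1 kept the call, at -1.47. Without combination replicate 2 the log2 fold change was -0.66 (limma adjusted p = 0.176).

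Set directly against the single agents, Cxcl1 was also lower under the combination. It differed from TP-16 by -1.37 on the log2 scale (standard error 0.31, limma unadjusted p = 0.00448, adjusted p = 0.133) and from anti-PD-1 by -1.07 (limma unadjusted p = 0.0136, adjusted p = 0.112). Both passed the unadjusted threshold alone. The departure from additivity, the combined effect minus the sum of the single effects, was -1.36 (standard error 0.43, limma unadjusted p = 0.0203, adjusted p = 0.585). Cxcl1 was the only member past the unadjusted threshold in these 3 comparisons, where 4.34%, 4.27% and 3.2% of all probes were called. Without combination replicate 2 it was past that threshold in none of them. Without anti-PD-1 replicate 1 it was lost against anti-PD-1 (-0.81). The departure from additivity also lost the unadjusted threshold without anti-PD-1 replicate 1 (-1.11), without TP-16 replicate 2 (-1.29) and without vehicle replicate 2 (-1.25).

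**Figure D1:**
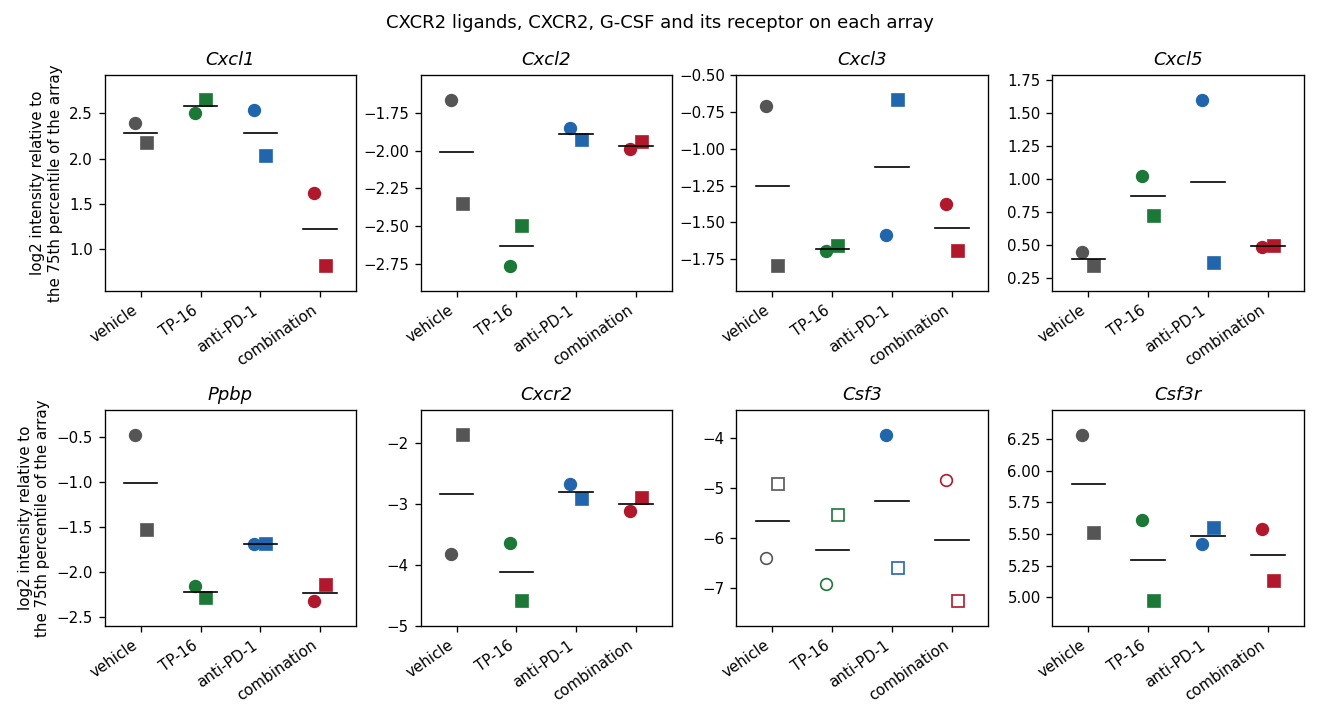
Level of each of the 8 genes on each array (log2 intensity minus that of the 75th percentile, with its own axis per gene), with circles for replicate 1, squares for replicate 2, lines for the mean of 2 arrays and open symbols for spots not well above background. The 2 combination arrays sit below all others for Cxcl1, vehicle replicate 1 sits highest for Ppbp, and Csf3 is well above background on 1 array.

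Ppbp, the precursor of the platelet chemokine CXCL7, was lower in both groups that received TP-16. Its levels were -0.48 and -1.54 in vehicle, -2.16 and -2.29 under TP-16, -1.69 on both anti-PD-1 arrays, and -2.32 and -2.14 under the combination. All 6 treated arrays lay below both vehicle arrays, and all 4 arrays with TP-16 lay below all 4 without it. Before the percentile was subtracted the intensities overlapped, at 112.8 to 166.3 with TP-16 and 123.7 to 266.8 without it. The order of means was vehicle (-1.01 ± 0.75, SD, n = 2), anti-PD-1 (-1.69 ± 0.0014), TP-16 (-2.22 ± 0.093) and combination (-2.23 ± 0.13). The last 2 did not differ beyond their spread (log2 difference -0.008). Under the combination Ppbp fell 2.33-fold (log2 fold change -1.22, standard error 0.33, limma adjusted p = 0.0385). Under TP-16 alone the fold was 2.32 (log2 fold change -1.21), past the unadjusted threshold alone (limma unadjusted p = 0.0109, adjusted p = 0.109). Without vehicle replicate 1 this value was -0.68, under a fold of 2, and without vehicle replicate 2 it was -1.75 and called (limma adjusted p = 0.0228). Under anti-PD-1 Ppbp differed by -0.68 (limma adjusted p = 0.396), and it was called without vehicle replicate 2 alone (-1.21, limma adjusted p = 0.0459). Averaged over the antibody, the main effect of TP-16 was -0.88 (standard error 0.23, limma adjusted p = 0.0534), under a fold of 2. Without vehicle replicate 1 the log2 fold change under the combination was -0.69 (limma adjusted p = 0.0308), and without vehicle replicate 2 it was -1.75 (limma adjusted p = 0.0109), which was the only fit with 1 array left out that kept the call. After quantile normalization the call was lost (-1.14, limma adjusted p = 0.0696).

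Pf4, whose gene neighbors Ppbp and which encodes platelet factor 4, had nearly the same pattern. Its levels were 6.04 and 5.35 in vehicle, 4.43 and 4.65 under TP-16, 5.26 and 5.23 under anti-PD-1, and 4.59 and 4.75 under the combination. Here too the 4 arrays with TP-16 lay below the 4 without it. Pf4 fell under the combination by 1.03 on the log2 scale (limma adjusted p = 0.0254), and the main effect of TP-16 was -0.87 (limma adjusted p = 0.0284), under a fold of 2. After quantile normalization the fall under the combination was -0.71 (limma adjusted p = 0.0828), and without vehicle replicate 1 it was -0.68, under a fold of 2. Over the 8 arrays Ppbp and Pf4 correlated at r = 0.964, a description over arrays that share the groups and the slide. Of the 12 platelet and megakaryocyte markers 7 were tested. Of these, Pf4 was lower under the combination, as given above. Gp1ba, a chain of the platelet receptor for von Willebrand factor, was well above background on the 2 combination arrays alone and entered the test through them, so its call is not counted. It was at least 1.06-fold higher there than in vehicle, with the vehicle arrays set at the lowest signal above background. Itga2b, Treml1 and Clec1b were well above background on 4, 6 and 5 arrays. Itgb3, an integrin chain, was above background on all 8 and differed from vehicle by 0.49 under the combination (limma adjusted p = 0.156). The summed intensity of the 7, at 24.8 to 68.9 times the 75th percentile, was 84.1% to 95.7% Pf4. The part of platelets in the Ppbp result was not tested.

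Cxcl2, Cxcl3 and Cxcl5 were called in none of the 8 comparisons. Cxcl2, the ligand that neutrophils and macrophages themselves release, was -1.66 and -2.35 in vehicle, -2.76 and -2.50 under TP-16, -1.85 and -1.93 under anti-PD-1, and -1.99 and -1.94 under the combination. Both TP-16 arrays lay below the 6 others. The difference between TP-16 and vehicle was -0.62 (95% confidence interval -1.20 to -0.04, limma unadjusted p = 0.0401, adjusted p = 0.176), under a fold of 2, and the combination exceeded TP-16 by 0.66 (limma adjusted p = 0.187). For the combination against vehicle the interval ran from -0.54 to 0.62.

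Cxcl3, a close relative of Cxcl1 and Cxcl2, was -0.71 and -1.80 in vehicle, -1.70 and -1.66 under TP-16, -1.59 and -0.67 under anti-PD-1, and -1.38 and -1.70 under the combination. Vehicle replicate 1 and anti-PD-1 replicate 2 were the high arrays, and the groups overlapped except that both anti-PD-1 arrays lay above both TP-16 arrays. The differences from vehicle were -0.43, 0.13 and -0.28 under TP-16, anti-PD-1 and combination treatment, each with a standard error of 0.44. Cxcl5, which epithelial cells make in quantity, was 0.45 and 0.34 in vehicle, 1.02 and 0.72 under TP-16, 1.60 and 0.36 under anti-PD-1, and 0.49 on both combination arrays. TP-16 lay above vehicle on both arrays, by 0.47 in the means (95% confidence interval -0.47 to 1.42, limma adjusted p = 0.468), and the single high value was anti-PD-1 replicate 1. None of the 5 tested pairs of groups differed past the unadjusted threshold for Cxcl3 or Cxcl5.

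Cxcr2 encodes the receptor for all 5 ligands. Its levels were -3.82 and -1.86 in vehicle, -3.64 and -4.59 under TP-16, -2.68 and -2.92 under anti-PD-1, and -3.11 and -2.91 under the combination. Vehicle replicate 2 was the highest of the 8 arrays and vehicle replicate 1 lay below all but TP-16 replicate 2, so the vehicle group overlapped with the other 3. On vehicle replicate 1 and TP-16 replicate 2, Cxcr2 lay near the lowest level well above background on that array (-4.08 and -4.87). The difference from vehicle was -1.27 for TP-16 (95% confidence interval -2.88 to 0.33), 0.05 for anti-PD-1 (-1.56 to 1.65) and -0.17 for the combination (-1.77 to 1.44), with limma adjusted p-values of 0.269, 0.98 and 0.861. Vehicle replicate 1 and vehicle replicate 2 each decided these values. Without the first, the 3 differences were -2.26, past the unadjusted threshold, -0.94 and -1.15, and without the second they were -0.29, 1.03 and 0.82. The combination arrays lay above the TP-16 arrays, by 1.11 in the means (limma adjusted p = 0.368). For anti-PD-1 and the combination the intervals reached past a fold of 2 in both directions.

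Csf3, the gene of G-CSF, was well above background on anti-PD-1 replicate 1 alone, at a level of -3.94. On the other 7 arrays it was not well above background, and it was not tested. Csf3r, the receptor gene, was 6.29 and 5.51 in vehicle, 5.61 and 4.97 under TP-16, 5.42 and 5.55 under anti-PD-1, and 5.54 and 5.13 under the combination. Vehicle replicate 1 was highest, TP-16 replicate 2 lowest, and vehicle overlapped with each other group. Its differences from vehicle were -0.60, -0.41 and -0.56 under TP-16, anti-PD-1 and combination treatment, with limma adjusted p-values of 0.298, 0.572 and 0.234. Without vehicle replicate 1 they were -0.22, -0.03 and -0.18, and without vehicle replicate 2 they were -0.99, -0.80 and -0.95, none of them called.

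The Csf3r probe was singular among the members in its sequence. It shares a run of at least 15 bases with 12 other probes of the array, while the probes of the other members share such a run with 0 or 1. The stretch is shown because those probes had the pattern of Csf3r.
Shared by the probes of Csf3r and TC1653005: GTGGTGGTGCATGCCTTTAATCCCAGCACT
Its 30 bases are a run of letters found in the probes of both names, and the 12 probes carry 12 different names. Over the 8 arrays the 12 correlated with Csf3r at r = 0.672 to 0.993, with a median of 0.922, against a median of 0.202 over all 31912 tested probes. These are descriptions over arrays of the same slide and groups, and the part of the shared bases in the Csf3r values was not tested. The pattern had vehicle replicate 1 high and TP-16 replicate 2 and combination replicate 2 low, and all 12 were lower under the combination than in vehicle.

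**Figure D2:**
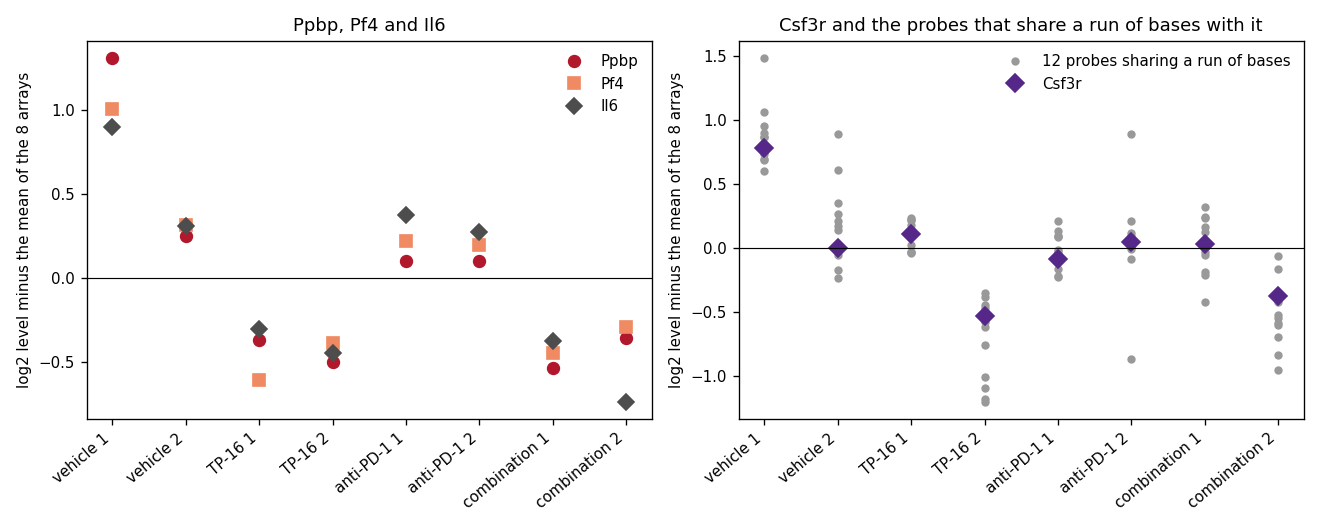
Level on each array minus the mean of the 8 arrays (log2), for Ppbp, Pf4 and Il6 on the left and for Csf3r with the 12 probes that share at least 15 bases with it on the right. On the left the 4 arrays with TP-16 sit below 0 and the others above it for all 3 genes, and on the right Csf3r lies within the range of the 12 probes on all 8 arrays.

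Over the comparisons with vehicle, 2 of 7 tested members were called under the combination, both lower, against 12.5% of all tested probes, and the members' median log2 fold change was -0.28 against -0.20. At the unadjusted threshold the same number was called, against 15.3%. Under TP-16 the count was 0 at adjusted p (background 0.0533%) and 1, Ppbp, at the unadjusted threshold (6.18%), with a median of -0.60 against -0.12. Under anti-PD-1 both counts were 0 (background 0.0721% and 3.83%) with a median of 0.05 against -0.10. Between the combination and either single agent 0 members were called at adjusted p, where the background was 0% (against TP-16) and 0.0157% (against anti-PD-1). The main effect of TP-16 had 0 members called at either threshold (2.69% and 4.78%), as had that of anti-PD-1 (0.0188% and 3.22%), and the departure from additivity had 0 at adjusted p (0%). The 3 comparisons with vehicle share its 2 arrays.

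**Figure D3:**
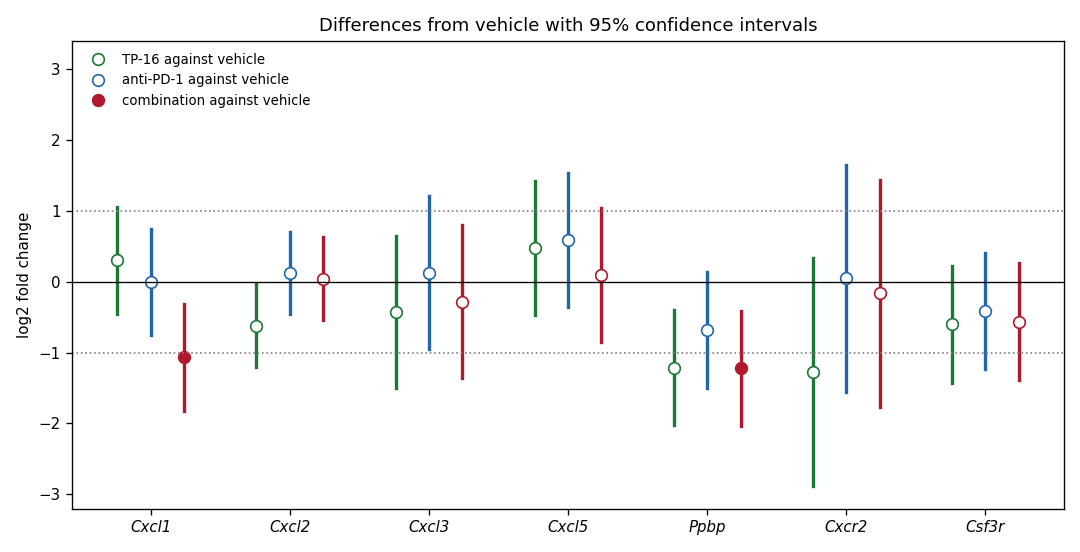
Log2 fold change against vehicle of the 7 tested members under each of the 3 treatments, with 95% confidence intervals from limma. Filled symbols are called at adjusted p, dotted lines mark a fold of 2, and only Cxcl1 and Ppbp under the combination are filled.

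Of the inducers of these ligands, 23 of 26 listed genes were tested, and under the combination 5 rose and 3 fell, with a median log2 fold change of 0.07. Over all tested probes 12.5% were called, 5.08% higher and 7.47% lower. Tnf, the gene of tumor necrosis factor, rose by 2.15 (levels -2.64 and -1.48 in vehicle, -0.26 and 0.44 under the combination, limma adjusted p = 0.0252). Tnfaip3, which encodes the NF-κB inhibitor A20, rose by 1.17 (limma adjusted p = 0.0102), and Il1rn, the interleukin 1 receptor antagonist, by 1.12 (limma adjusted p = 0.0157). The other genes that rose were Csf2ra and Csf2rb, the receptor chains for GM-CSF. Il6 fell by 1.16 (limma adjusted p = 0.0175), from levels of -0.32 and -0.91 to -1.59 and -1.95, and its main effect of TP-16 was -0.93 (limma adjusted p = 0.0236). Hmgb1, a nuclear protein released from dying cells, fell by 1.24 and Il22 by 1.45, with Il22 well above background on 1 of the 2 combination arrays. Il1b (-0.16, limma adjusted p = 0.477) and Nfkbia (0.04, limma adjusted p = 0.833) did not pass the test, and neither did Ptgs2, the inducible enzyme of prostaglandin synthesis (0.13, limma adjusted p = 0.681). Il1a, Il17a and Il17f were not tested. After quantile normalization Hmgb1 and Il22 were not called. Without vehicle replicate 1 the list had 5 calls in place of 8, Tnf and Il6 not among them. Over the 8 arrays Cxcl1 correlated with Tnf at r = -0.762, with Il1b at 0.587 and with Il6 at 0.503, while Ppbp correlated with Il6 at 0.908.

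Of 25 neutrophil markers 22 were tested, and under the combination 0 rose and 3 fell at adjusted p, with a median log2 fold change of 0.24. Against the 12.5% of all tested probes, 3 of 22 is near the background. S100a8 and S100a9, whose proteins form calprotectin, fell by 1.09 and 1.20 (limma adjusted p = 0.0177 and 0.0195). S100a9 was 4.80 and 5.50 in vehicle, 4.90 and 5.11 under TP-16, 5.23 and 5.11 under anti-PD-1, and 4.08 and 3.82 under the combination, where both arrays lay below all others as for Cxcl1. Stfa2l1, a stefin of neutrophils, fell by 1.39 (limma adjusted p = 0.0107). The other markers did not share one direction. Camp, the gene of cathelicidin, was 1.30 higher (limma adjusted p = 0.115), Mmp8 0.80 higher (limma adjusted p = 0.0366, under a fold of 2), and Elane, neutrophil elastase, differed by -0.53 (limma adjusted p = 0.0534). Ly6g, the defining surface marker, was well above background on 2 arrays, both of the combination, and no fold bound could be given against vehicle. Prtn3, Ngp and Cd177 were not tested. The summed intensity of the 22 markers, of which S100a9 was 24.6% to 49.9%, was 59.5 to 90.5 times the 75th percentile in vehicle, 64.3 to 79.2 under TP-16, 83.1 to 88.0 under anti-PD-1 and 56.4 to 57.4 under the combination. The mean log2 level of the same markers did not put the combination lowest, with -0.69 and -0.64 there against -1.10 and -0.44 in vehicle, -0.88 and -0.81 under TP-16, and -0.43 and -0.37 under anti-PD-1. These means include Ly6g and Ltf, which were well above background on 2 and 3 arrays, so their values and calls elsewhere rest on signal near background. The calls in this list changed with the scaling and with 1 vehicle array. After quantile normalization Camp was called higher and Stfa2l1 lower, with S100a8 and S100a9 at -0.98 and -0.95, under a fold of 2. Without vehicle replicate 2, Ctsg and Retnlg were called higher and Stfa2l1 lower. Ly6g was also called in both fits and Ltf in the first, but they entered the test through the combination arrays. Cxcl1 correlated with S100a9 over the arrays at r = 0.816, with S100a8 at 0.715 and with Stfa2l1 at 0.591. These 3 are the markers called lower under the combination, where Cxcl1 was lowest too, so their choice favors a positive r. For the other markers r with Cxcl1 is not given. Cxcr2 correlated with S100a9 at 0.123, with S100a8 at 0.21 and with Ly6g at 0.599, where 6 of the 8 Ly6g values were not well above background.

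**Figure D4:**
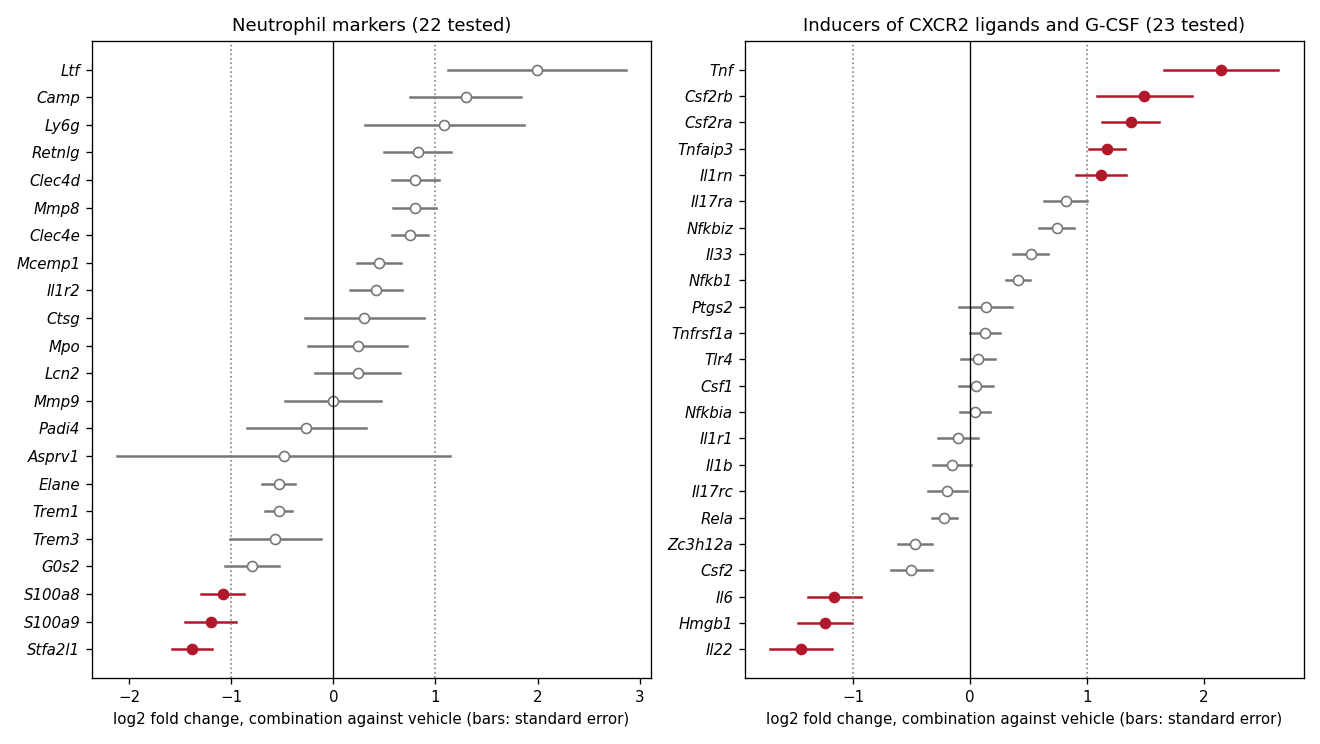
Log2 fold change between the combination and vehicle, with standard errors from limma, for the 22 tested neutrophil markers and the 23 tested inducers of the ligands. Filled symbols are called at adjusted p and dotted lines mark a fold of 2, with S100a8, S100a9 and Stfa2l1 the called neutrophil markers and Tnf the inducer with the highest value.

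The list counts that follow stand against 5.08% of all tested probes higher and 7.47% lower. Of 21 genes of CXCR2 and G-CSF receptor signaling, 9 rose under the combination and 0 fell (median log2 fold change 0.91), led by Gfi1 (2.36), a transcription factor of granulocytes and lymphocytes, the kinase Fgr (2.13) and Pik3r5 (2.05), an adaptor of PI3Kγ. Of 18 adhesion molecules and attractant receptors, 7 rose and 0 fell (median 0.46), with Itgal (2.17) and Itgb2 (2.05), the chains of the integrin LFA-1, and Icam1 (1.96), its endothelial partner. Among 9 tested other chemokines and receptors, Ccl4 (2.03), Ccl3 (1.88), Cxcl12 (1.80) and the decoy receptor Ackr1 rose, and Pf4 fell. Without the filter on dim probes Cxcl12 and Pf4 were not called. With 1 array left out Cxcl12 ranged from 1.57 to 2.03. Many of these signaling and adhesion genes are also expressed by macrophages and lymphocytes. Markers of those cells moved with them, and their part in these values was not tested. Of 12 macrophage markers 6 rose and 0 fell, of 11 T and NK cell markers 5 rose, and of 9 mast cell markers 8 rose. The macrophage list had a mean log2 level of 4.12 to 4.38 in vehicle and 4.79 to 5.21 under the combination, while its summed intensity overlapped (686.3 to 797.4 and 768 to 905.9 times the 75th percentile), and Lyz2, Cd14 and Mrc1 differed by -0.56, -0.51 and -0.21, under a fold of 2. Vehicle replicate 1 stood apart in the T and NK cell list, with a mean log2 level of -1.22 against 0.78 in vehicle replicate 2 and 0.90 to 2.13 on the other arrays, and the count was 4 without it and 10 without vehicle replicate 2. Of the tested monocyte, endothelial and fibroblast markers 1 of 8, 1 of 9 and 4 of 10 rose and 0 fell, and of 5 epidermal markers 0 were called at either threshold. The monocyte and endothelial calls, Ly6c2 and Vwf, were lost without the filter on dim probes. After quantile normalization Tek was the endothelial call in place of Vwf. Without vehicle replicate 1, 5 of the signaling genes and 2 of the macrophage markers were called higher, and without combination replicate 1, 0 of the T and NK cell markers. Leaving out 1 array of TP-16 or anti-PD-1 left 1 of the latter, and 0 were called without the filter on dim probes. Of 8 tested markers of epithelial tumor cells, Krt18 fell by 1.39 (limma adjusted p = 0.0196). Not called, but lower in their means, were Krt8 (-4.096 against -1.412 in vehicle), Krt19 (-4.412 against -3.678) and Cldn7 (-4.397 against -3.335). Krt20 hardly differed (6.059 against 6.064) and Cdh1 was higher (-2.593 against -3.413). Cxcl1 correlated over the arrays with Krt18 at r = 0.851 and with Krt8 at 0.484. Both were lower under the combination, as Cxcl1 was, and r with the other markers is not given. Cldn4 and Cdx2 were also called lower, but they entered the test through the vehicle arrays, where they are high, and give no count against the background. They were not well above background on either combination array and were at least 5.07-fold and 6.9-fold higher in vehicle. The summed intensity of the 8 markers, 81.5% to 94.0% of it Krt20, was 74.8 to 83.0 times the 75th percentile in vehicle and 58.8 to 85.8 under the combination. The part of tumor cells in the Cxcl1 values was not tested. Under TP-16 and under anti-PD-1, 0 genes of all 14 lists were called at adjusted p.

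Other genes followed single members over the 8 arrays, among 21615 genes set against each. Cxcl1 was followed most closely by Nelfb (r = 0.988), Xrcc6 (0.966) and Epb41l5 (0.964), and Cxcl2 by Sel1l3 (0.955). The nearest to Cxcl3 was Cnep1r1 (0.9495) and to Cxcr2 Trarg1 (0.966). For Csf3r it was Ikzf3 (0.993), with TC1653005, whose probe shares the bases printed above, at the same value. With 8 arrays in 4 groups, 15 genes had r of at least 0.95 with Cxcl1, 15 with Ppbp and 54 with Csf3r, against 0 with Cxcl3 and Cxcl5. Among the members themselves, Csf3r and Ppbp had the highest value (0.821), while Cxcl1 gave -0.337 with Cxcl2 and 0.073 with Cxcl3. The Csf3r values, the 54 genes included, may not be those of its RNA alone, as its probe shares bases with other probes.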

How the data were processed

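Per the labels, total RNA of CT26 tumors was labelled with Cy3, and the methods give TRIzol extraction where the labels give a column kit. The authors deposited scanner intensities, background-subtracted and detrended by Agilent Feature Extraction 10.7.1.1 (version per the submitters' processing notes), and a table of log2 values from GeneSpring, whose normalization is not given in the sources used here. After removal of control spots, spots of a probe were averaged and 38 probes marked as outliers were dropped. The log2 intensity minus the array's 75th percentile was the main value. A probe entered the test where some group had it well above background on both its arrays. The test was that of limma 3.58.1 (R 4.3.3), with 1 mean per group and 4 residual degrees of freedom. The number of arrays limits the precision.

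Groups and replicate numbers came from the labels. The 8 comparisons were the 3 treatments against vehicle, the combination against each single agent, both main effects and the departure from additivity. A list gene with several probes is given by its brightest tested probe. Members and gene lists were chosen with earlier results of these data known. Genes that could be named were the 8 members, the nearest 3 genes by correlation and any neutrophil marker or inducer. From each list the 3 genes with the largest change called could be named too. Some list genes outside this rule, such as Itgb3, Lyz2 and Krt20, are also named. Genes were named by RefSeq (GRCm38.p6) for 58.3% of the probes and by the array otherwise. Alternatives were quantile normalization, normexp (offset 50), dropping the filter on dim probes, requiring signal above background on all arrays, a single probe per gene, a replicate block, the authors' log2 values, the compared groups only, trended robust moderation, the methods' t-test and leaving out each array. The calculations were tested on simulated data. Protein sequences were not used here.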

Additional observations from a re-analysis of the deposited data

Results flagged for a closer look

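The effect of TP-16 on Cxcl1 differed between mice with and without anti-PD-1 antibody at an unadjusted p. Without the antibody the log2 difference was 0.30, with it -1.07, and the departure from additivity was -1.36 (limma unadjusted p = 0.0203, adjusted p = 0.585 over all tested probes). Both combination arrays lay below both anti-PD-1 arrays, and both TP-16 arrays lay above both vehicle arrays. The size ranged from -1.77 to -0.96 with 1 array left out.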

How the results depend on the processing

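Under the combination at adjusted p, the compared groups only and the methods' t-test called 0 of all 31912 probes, the members among them. After quantile normalization, without the filter on dim probes and with the authors' log2 values, 3363, 3729 and 3367 probes were called. The 2 calls of members were 0 in these settings too, and 1 (Ppbp) with normexp, where 2550 probes were called. They ranged from 0 to 1 with 1 array left out, and the cause was not tested. At the unadjusted threshold the methods' t-test gave 0 for TP-16, for the combination and for the combination against either single agent, and normexp 0 for TP-16, 1 for the combination and 0 against anti-PD-1. The compared groups alone gave 2 for the combination against TP-16. With 1 array left out, the adjusted counts ranged from 0 to 1 for both single agents and the main effect of TP-16. The unadjusted counts ranged from 0 to 1 for anti-PD-1 and both main effects, from 1 to 2 for the combination, and from 0 to 2 for the combination against TP-16, against anti-PD-1 and for the departure from additivity. A lone array left in a group is assumed to vary like the other groups.

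Signs changed only among values that were not called. For anti-PD-1, Cxcl1 was 0.013 after quantile normalization and with the authors' values and 0.01 with normexp, and Cxcr2 -0.12 with normexp. For the combination, Cxcl2 was -0.16 with normexp and Cxcr2 0.07 after quantile normalization and with the authors' values. With 1 array left out, anti-PD-1 ranged from -0.26 to 0.25 (Cxcl1), -0.23 to 0.47 (Cxcl2), -0.42 to 0.67 (Cxcl3), -0.033 to 1.20 (Cxcl5) and -0.94 to 1.03 (Cxcr2). The combination ranged from -0.30 to 0.39 (Cxcl2), -0.83 to 0.26 (Cxcl3) and -1.15 to 0.82 (Cxcr2), and Cxcl3 under TP-16 from -0.97 to 0.12.

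Samples of the same number correlated in their deviations at -0.193 to 0.29, so the numbers do not pair the samples. With the replicate block the members called at adjusted p under the combination remained 2, and all probes called went from 4004 to 3802.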
